A study of Mus musculus with 8 samples.

Results

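Ribosomal protein genes encode the protein parts of the cytoplasmic ribosome. H3.3-HA peaks were described here at the mouse genes whose symbols begin with Rpl or Rps and a digit, together with Rpsa, Rplp0, Rplp1 and Rplp2. Rps6k kinases and genes of the mitochondrial ribosome were left out. This rule took 138 of 22367 protein-coding genes. Of these, 76 are the standard genes, 45 for the large (60S) and 31 for the small (40S) subunit. A further 9 are paralogs or other proteins with such a symbol, and 53 are retrocopies, intronless copies with "-ps" in the symbol that the annotation types as protein-coding. The rule used gene symbols only and no measured value.

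The peaks came from native ChIP-seq of HA-tagged H3.3 in mouse embryonic stem cells (mESCs). The 4 conditions were Hira-null cells (Clone104) at day 15 of differentiation towards cardiomyocytes, wild type cells (WT, W9.5) at day 15, Hira-null mESCs at day 0 and WT mESCs at day 0. All 4 cultures carried the H3.3-HA tag, and each genotype was 1 cell line. Each condition had 1 ChIP and 1 input library, so no difference between conditions below has a replicate check, and genotype, clone and library cannot be told apart. A peak marks a stretch where H3.3-HA reads were enriched, and fewer cells with H3.3 at a site and less H3.3 per cell cannot be told apart.

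The histone variant H3.3 is put into chromatin throughout the cell cycle, and the chaperone HIRA places it at many transcribed genes. Ribosomal protein genes are short, transcribed in nearly all cells, and many hold small nucleolar RNA (snoRNA) genes in their introns. Their mRNAs begin with a run of pyrimidines, the TOP tract. A transcript ends where the poly(A) signal in its last bases is read and the RNA is cut.

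In WT cells most of the standard genes carried a peak at the gene end. The ends of 6 genes are shown, because in every list more of these genes had a peak at the end than at the start. Each run gives the last 30 bases of the annotated gene and the 60 bases past it, in the direction of transcription (mm9), with the last poly(A) signal, AATAAA or ATTAAA, in capitals. The first 3 genes carried a peak at the end in both genotypes at day 15 and the last 3 in WT cells alone.
Rpl23 (chr11:97638781-97638870, minus strand): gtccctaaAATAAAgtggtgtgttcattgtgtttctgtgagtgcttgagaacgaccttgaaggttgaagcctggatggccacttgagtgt
Rpl5 (chr5:108337995-108338084, plus strand): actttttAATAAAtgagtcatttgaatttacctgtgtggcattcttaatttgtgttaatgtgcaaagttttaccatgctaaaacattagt
Rpl6 (chr5:121659221-121659310, plus strand): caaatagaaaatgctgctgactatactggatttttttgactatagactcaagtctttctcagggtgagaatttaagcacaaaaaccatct
Rps27a (chr11:29445786-29445875, minus strand): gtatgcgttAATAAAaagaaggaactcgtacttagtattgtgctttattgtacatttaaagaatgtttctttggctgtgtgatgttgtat
Rpl19 (chr11:97891777-97891866, plus strand): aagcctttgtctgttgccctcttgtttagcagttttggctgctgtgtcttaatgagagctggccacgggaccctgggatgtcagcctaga
Rps12 (chr10:23504930-23505019, minus strand): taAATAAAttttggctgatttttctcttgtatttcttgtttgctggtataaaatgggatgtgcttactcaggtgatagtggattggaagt

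Rpl6 and Rpl19 held neither signal in these 30 bases. Read in the direction of transcription, AATAAA or ATTAAA stood in the last 50 bases of 66 of the 76 standard genes (86.8%), 26.4% of the retrocopies and 66.6% of all protein-coding genes. So for most standard genes the annotated end lay just past a poly(A) signal. A match is a sequence of letters, not a measured cleavage site.

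Peaks were first counted from 10 kb before the transcription start site (TSS) to 3 kb past the gene end, where 1 shared base was enough. At day 15, 53 of the 76 standard genes had a peak in Hira-null cells (69.7%) and 68 in WT cells (89.5%). At day 0, 17 had one in Hira-null mESCs (22.4%) and 62 in WT mESCs (81.6%). Among all protein-coding genes the shares were 15.2% in Hira-null and 39.4% in WT cells at day 15, and 20.3% in Hira-null and 35.4% in WT cells at day 0. The standard genes thus stood above the background in 3 lists and close to it in Hira-null mESCs. With all 138 symbols counted, the numbers were 59 and 80 at day 15 and 26 and 73 at day 0, Hira-null before WT.

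Within 1 kb of the gene end the standard genes stood further from the background. At day 15, 33 of 76 had such a peak in Hira-null cells (43.4%, exact Clopper-Pearson 95% interval 32.1 to 55.3) and 55 in WT cells (72.4%, 60.9 to 82.0). At day 0, the count was 9 in Hira-null mESCs (11.8%, 5.56 to 21.3) and 52 in WT mESCs (68.4%, 56.7 to 78.6). The shares of all protein-coding genes were 3.72% and 10.9% in Hira-null and WT cells at day 15 and 2.32% and 6.73% at day 0. The intervals cover counting error over genes only, not the spread between libraries. Counts over all 138 symbols were 33 and 59 at day 15 and 9 and 55 at day 0.

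Within 1 kb of the TSS few of the same genes had a peak, and the shares were close to the background in 3 of the 4 lists. At day 15, 3 standard genes had a peak there in Hira-null cells (3.95%) and 9 in WT cells (11.8%), against 0.921% and 12.6% of all protein-coding genes. At day 0, 1 had one in Hira-null mESCs (1.32%) and 6 in WT mESCs (7.89%), against 1.28% and 8.56% of all. The 9 genes with a WT start peak at day 15 included Rpsa, a small subunit protein also known as a laminin receptor, and Rpl21, Rpl19 and Rps9.

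**Figure D1:**
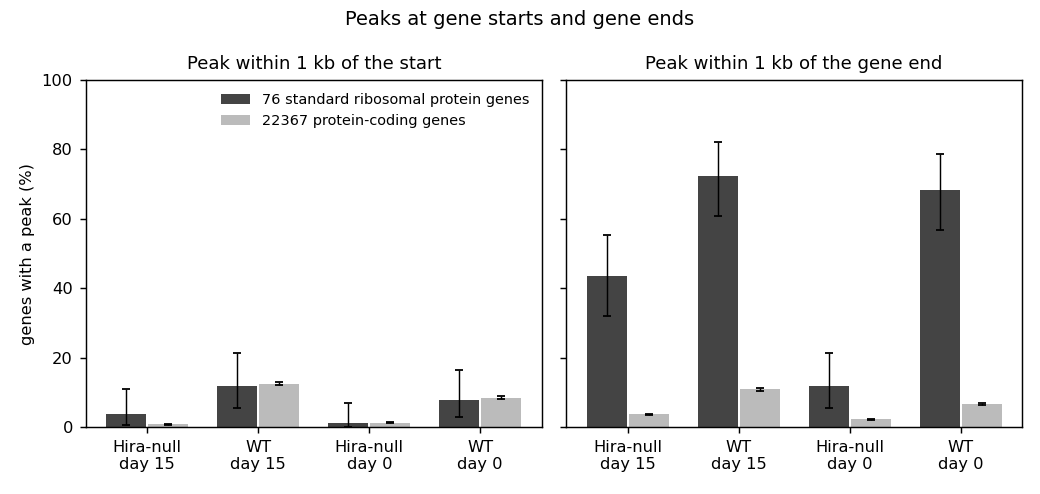
Share of genes (y axis, percent) with a peak within 1 kb of the TSS (left) and of the gene end (right) in each of the 4 peak lists, for the 76 standard ribosomal protein genes (dark) and all 22367 protein-coding genes (light). Lines are exact 95% intervals for counting error. At the start the bars are alike in WT cells (11.8% and 12.6% at day 15), while at the end the dark bars reach 72.4% and 68.4% in WT cells, against 10.9% and 6.73% of all genes.

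A profile along the genes gave the same picture at finer steps. In Hira-null cells at day 15, the share of standard genes under a peak was 1.32% at the TSS, 7.89% at a point just past mid-gene, 30.3% at the gene end and at most 32.9%, 1375 bp past the end. In WT cells at day 15 it was 2.63% at the TSS, 11.8% just past mid-gene, 48.7% at the end and at most 55.3%, at the same distance. In Hira-null mESCs the highest value was 11.8%, inside the gene at 72% of its length. In WT mESCs it was 56.6%, 375 bp past the end. Over all protein-coding genes the WT profile had its highest point before the start, 7.54% at day 15 and 5.14% at day 0, in each case 750 bp upstream of the TSS. It had a second rise at the gene end, with 5.97% at day 15 and 3.52% at day 0.

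**Figure D2:**
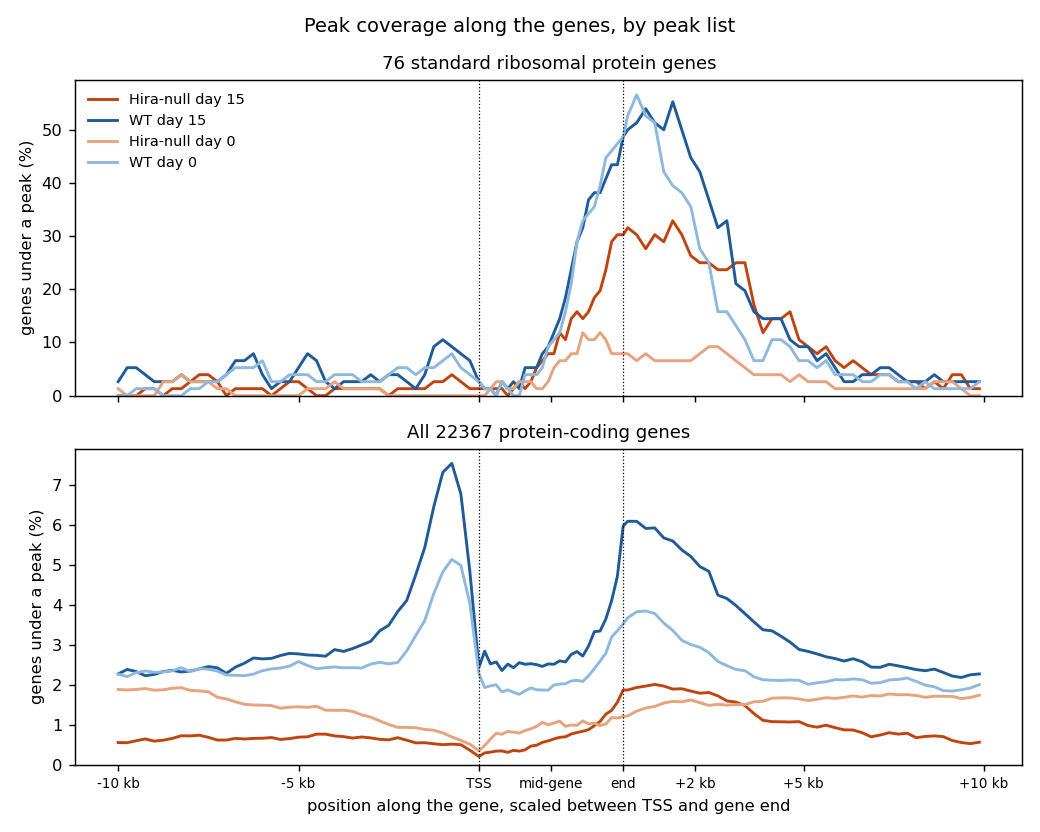
Share of genes under a peak (y axis, percent, with a different range in each panel) from 10 kb upstream of the TSS to 10 kb past the gene end, with the gene scaled between the dotted lines, for the standard ribosomal protein genes (top) and all protein-coding genes (bottom) in the 4 lists. The top panel has a broad summit at and past the gene end, up to 55.3% in WT cells at day 15, and nothing of that height at the TSS. The bottom panel has a summit before the TSS and a lower one at the gene end in the WT lists. In Hira-null cells at day 15 the bottom panel is also highest past the gene end, at 2.01%.

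In 3 of the 4 lists the median end peak lay past the annotated gene end. In Hira-null cells at day 15, 44 peaks touched the 1 kb on either side of an end. Their midpoints lay at a median of 228 bp past the end, 23 crossed the end, 13 lay wholly past it and 8 wholly before it. In WT cells at day 15, the 63 end peaks had a median midpoint 407 bp past the end, 37 crossed it, 20 lay wholly past it and 6 wholly before it. The 10 end peaks of Hira-null mESCs had a median midpoint at -257 bp, before the end. The 57 end peaks of WT mESCs had a median midpoint 451 bp past it. By midpoint, the 3 kb past the end held 50.5% of the peaks of standard genes in Hira-null cells and 42.2% in WT cells at day 15, against 18.3% and 9.83% over all protein-coding genes. At day 0 it held 26.9% in Hira-null mESCs and 47.6% in WT mESCs, against 7.00% and 8.03%.

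Neighbouring genes could place a peak near these ends. Of the 63 WT end peaks at day 15, 5 had the TSS of another protein-coding gene within 1 kb of their midpoint, 8 had their midpoint inside another gene and 18 touched no other gene's window. With peaks counted only at the protein-coding gene nearest to their midpoint, 30 standard genes kept an end peak in Hira-null cells and 44 in WT cells at day 15, and 8 and 43 at day 0. Ends differ between transcripts, and the annotated spans of Rpl24, Rpl11, Rps15a and Rpl13a were long, at 42639, 25164, 11809 and 10860 bp, against a median of 3238 bp. With each gene held to the transcript with the longest coding sequence, the end counts were 30 and 57 at day 15 and 10 and 53 at day 0.

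The genotypes were set side by side at day 15 to ask which of these sites also carried a peak without HIRA. A window peak was present in both genotypes at 52 standard genes, in Hira-null cells alone at 1, in WT cells alone at 16 and in neither at 7. Over all protein-coding genes, 11.1% had a peak in both, 4.1% in Hira-null alone and 28.3% in WT alone. The 1 gene with a peak in Hira-null cells alone was Rpl36, a large subunit protein, whose peak had its midpoint at -5181.5 bp from the TSS, in the windows of Safb and another gene. At the gene end, 29 genes had a peak in both genotypes, 4 in Hira-null cells alone (Rps15a, Rps24, Rps26 and Rps28) and 26 in WT cells alone. Alone here means no peak of the other genotype within 1 kb of the end. The Rps24 end peak still overlapped a WT peak further off. At Rps15a, 3 of the 4 Hira-null peaks touched the end and 2 of the 4 had no WT partner, so an end peak there overlapped a WT peak too. The end peaks of Rps26 and Rps28 overlapped none. Over all protein-coding genes the shares at the end were 2.32% in both, 1.39% in Hira-null cells alone and 8.61% in WT cells alone. In all 29 the end peaks of the genotypes overlapped each other. Peaks picked for touching the same end are likely to overlap, so this overlap says little on its own. The 29 were 87.9% of the genes with an end peak in Hira-null cells and 52.7% of those in WT cells.

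The lower Hira-null count at day 15 moved with the length of the peak list. The lists held 7332 peaks in Hira-null and 27272 in WT cells at day 15. With the WT list held to its 7332 highest-scoring peaks, 53 standard genes had a window peak in Hira-null and 53 in WT cells, and 33 and 38 had an end peak. Over all 138 symbols the window counts at equal length were 59 in Hira-null and 57 in WT cells, so the order of the genotypes was turned. The end counts over the 138 symbols were 33 in Hira-null and 41 in WT cells. The part of read depth in these counts was not tested. Shares over all protein-coding genes or all peaks at equal list length were not computed, here or below. Whether the changes at equal length are particular to these genes thus cannot be told.

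At day 0 the difference between genotypes was of another kind. A window peak was found in both genotypes at 16 standard genes, in Hira-null mESCs alone at 1, in WT mESCs alone at 46 and in neither at 13. Over all protein-coding genes 13.5% had a peak in both, 6.8% in Hira-null alone and 21.9% in WT alone. At the end, 9 genes had a peak in both, 0 in Hira-null mESCs alone and 43 in WT mESCs alone. Over all protein-coding genes these shares were 1.11%, 1.21% and 5.62%. Rps3a, a small subunit protein, was the 1 gene with a window peak in Hira-null mESCs alone, 2786.5 bp past its end with a score of 55.5. The day 0 lists were nearer in length, 17706 peaks in Hira-null and 22730 in WT mESCs. With each held to 7332 peaks, 6 standard genes had a window peak in Hira-null and 40 in WT mESCs, and 4 and 37 had an end peak. The order was thus the same at equal length.

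Peaks could also be compared one by one. At day 15, 18 of the 89 Hira-null peaks at standard genes had no overlapping WT peak (20.2%, 95% interval 12.4 to 30.1), against 69.2% of all Hira-null peaks, and 79 of the 146 WT peaks had no overlapping Hira-null peak (54.1%, 45.7 to 62.4), against 91.9% of all WT peaks. These shares are of the full lists and moved with list length. With each list held to 7332 peaks, 41.6% of the Hira-null and 40.5% of the WT peaks at standard genes had no partner at day 15. At day 0, 12 of 26 Hira-null peaks had no WT partner (46.2%, 26.6 to 66.6), against 67.2% of all. In WT mESCs the order was the reverse, since 89 of 102 peaks had no Hira-null partner (87.3%, 79.2 to 93.0), against 72.7% of all WT peaks.

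By day, the Hira-null lists differed most. A window peak was present at day 15 and day 0 at 15 standard genes, at day 15 alone at 38 and at day 0 alone at 2 in Hira-null cells, although the day 15 list was the shorter. Over all protein-coding genes these shares were 6.89%, 8.31% and 13.4%, so there more genes had a peak at day 0 alone than at day 15 alone. In WT cells, 61 standard genes had a peak on both days, 7 at day 15 alone and 1 at day 0 alone, which was Rps13. With each list held to 7332 peaks, 18 standard genes had a WT peak at day 15 alone and 5 at day 0 alone, so these small counts moved with list length. In the full lists, the shares over all protein-coding genes in WT cells were 23.8%, 15.6% and 11.5%. At the ends, 45 of the 46 WT genes with an end peak on both days had overlapping peaks, which the choice by position also favours.

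The genes also differed among themselves. Peaks in all 4 lists were found at 14 standard genes, among them Rpl3, Rpl5, Rpl6, Rpl8, Rpl10a, Rpl21, Rpl24, Rplp2, Rps15a, Rps18, Rps19, Rps24 and Rps28. The most common pattern, at 35 genes, was a peak in every list but Hira-null day 0. A WT peak on both days and no Hira-null peak was found at 10 genes, among them Rpl11, Rpl14, Rpl19, Rpl22, Rpl23a, Rpl29, Rplp0, Rps9 and Rps27a. No list had a peak at Rpl10, Rpl18, Rpl30, Rpl36a, Rpl39 and Rplp1. Of these, Rpl10, Rpl36a and Rpl39 lie on the X chromosome, whose other standard gene, Rps4x, had 1 peak, in WT cells at day 15. Few X-linked genes had window peaks at day 15 (1.93% of all in Hira-null and 0.644% in WT cells), and whether the X chromosome is underrepresented in the reads was not tested.

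**Figure D3:**
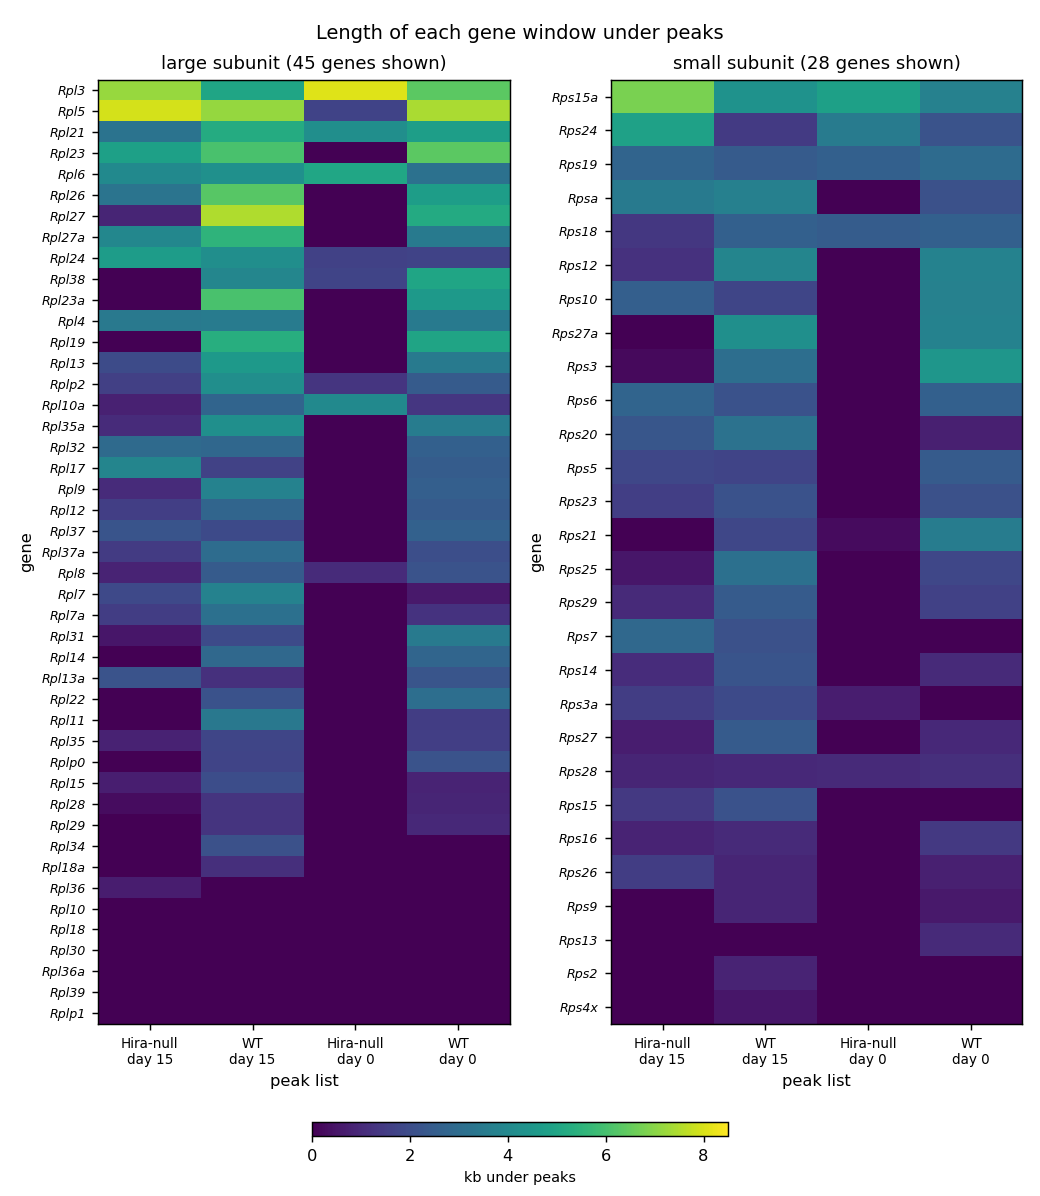
Length under peaks (colour, kb) within the window of the 45 large and most of the small subunit genes (rows, ordered by their sum) in the 4 lists (columns). The Hira-null day 0 column is dark for most genes shown, while the WT columns are filled for most. Over all 76 standard genes, including those not shown, 17 had a peak in Hira-null mESCs, and 68 and 62 in WT cells at day 15 and day 0. The 6 genes without a peak in any list are at the foot of the large subunit panel.

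Rpl6, a large subunit protein, carried the highest-scoring peak of any standard gene in both Hira-null lists. Its end peak scored 1451 in Hira-null and 558 in WT cells at day 15, and 871 in Hira-null and 263 in WT mESCs at day 0. The score is that of the peak caller, the negative log10 of the peak's p-value times a constant, and it grows with depth, so scores rank peaks only within a list. The Rpl6 peak ranked 62 of 7332 in Hira-null and 281 of 27272 in WT cells at day 15, and 86 of 17706 in Hira-null and 873 of 22730 in WT mESCs at day 0. It covered 4521 bp in Hira-null and 3444 bp in WT cells at day 15 and 6447 bp in Hira-null and 3171 bp in WT mESCs, and crossed the end in every list.

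Rpl5, which binds 5S rRNA on its way into the large subunit, had end peaks in all 4 lists as well. They scored 1196 (rank 103) in Hira-null and 952 (rank 64) in WT cells at day 15, and 80.1 (rank 12576) in Hira-null and 812 (rank 32) in WT mESCs at day 0. The Rpl5 peak was the highest-scoring of any standard gene in WT mESCs. Rpl5 hosts 3 annotated snoRNAs and had 3 window peaks in Hira-null and 4 in WT cells at day 15, and 1 in Hira-null and 4 in WT mESCs. Fam69a, a neighbour, overlaps Rpl5 itself. The day 15 end peaks had midpoints at -576 bp (Hira-null) and -276.5 bp (WT) from the Rpl5 end, and both midpoints also lay inside Fam69a. These peaks thus cannot be given to Rpl5 alone.

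Rpl3, a core protein of the large subunit that hosts 2 snoRNAs, had long stretches under peaks in every list. Peaks lay over 7198 bp of its window in Hira-null and 4994 bp in WT cells at day 15, and over 8083 bp in Hira-null and 6371 bp in WT mESCs at day 0. Its highest peak scored 1397 in Hira-null and 251 in WT cells at day 15, and 663 in Hira-null and 453 in WT mESCs. The Hira-null day 0 peak, 7072 bp wide, reached from inside 1 kb of the TSS to past the end, and was the 1 Hira-null start peak at day 0. Rpl21, Rpl10a and Rps19 also had end peaks in all 4 lists.

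Rpl23 and Rps27a carried the highest-scoring peaks of standard genes in WT cells at day 15. At Rpl23, Hira-null cells at day 15 had 4 short peaks, the highest at 295 (rank 878 of 7332). WT cells at day 15 had 1 wide peak there (chr11:97636192-97642236), which scored 1676 and ranked 9 of 27272. Hira-null mESCs had no Rpl23 peak, and the end peak of WT mESCs scored 498. Rps27a encodes ubiquitin fused to a small subunit protein. It had no Hira-null peak on either day, against a WT peak of 1525 (rank 12) at day 15 and 3 WT peaks at day 0, of up to 184. The day 15 peak of Rps27a was 9011 bp wide and ran from inside the gene into Mtif2, so it cannot be given to Rps27a alone. Both genes lie on chromosome 11. Chromosomes 8 and 11 held 3428 and 5689 of the WT day 15 peaks and carry 9 of the standard genes. In WT cells at day 15, 26.3% and 32.3% of all protein-coding genes on chromosomes 8 and 11 had an end peak. Without those chromosomes, 30 of 67 standard genes had an end peak in Hira-null and 46 of 67 in WT cells at day 15, and 8 and 44 at day 0. The 67 include 4 on the X chromosome, which had no end peak. For all protein-coding genes outside chromosomes 8, 11 and X, the shares were 3.74% in Hira-null and 8.69% in WT cells at day 15. At day 0 they were 2.48% and 6.04%.

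In Hira-null cells at day 15 the highest peaks after that of Rpl6 lay at Rps24 (1425), Rpl3, Rpl5 and Rpl37 (1121). The Rps24 peak was 5621 bp wide and ranked 67 in the Hira-null list, and the highest WT peak at day 15 was 1451 bp wide and ranked 4004. The Rpl37 peak was 5664 bp wide and ranked 121 in the Hira-null list, and the highest WT peak was 961 bp wide and ranked 6106. The Rpl37 peak began 786 bp past the end and ran on beyond the window. Among the small subunit genes, Rps15a had the most Hira-null peaks, 4 at day 15 and 4 at day 0, against 5 and 3 in WT cells. Rpl27, a large subunit gene, had 1 window peak in Hira-null and 6 in WT cells at day 15, the most of any standard gene, and 0 in Hira-null and 3 in WT mESCs.

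The large and small subunit genes had similar shares of end peaks. At day 15, 20 of 45 large and 13 of 31 small subunit genes had one in Hira-null cells, and 34 and 21 in WT cells. At day 0, 6 large and 3 small subunit genes had one in Hira-null mESCs, and 32 and 20 in WT mESCs. Of the 30 genes with an annotated snoRNA inside them, 18 had an end peak in Hira-null and 25 in WT cells at day 15, and 4 and 22 at day 0. Of the 46 without one, 15 and 30 had one at day 15, and 5 and 30 at day 0.

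Peak scores and widths are given within each list. At standard genes the median score was 125 in Hira-null and 132 in WT cells at day 15, and 69.3 in Hira-null and 97.8 in WT mESCs. The medians of the whole lists were 91.7 and 86.7 at day 15 and 122 and 80.3 at day 0. So the peaks of standard genes were above the middle of their list in 3 lists and below it in Hira-null mESCs, where the median peak stood at the 20.1 percentile. The median widths were 998 bp in Hira-null and 1098 bp in WT cells at day 15, and 1310 bp in Hira-null and 1412 bp in WT mESCs. The median widths of the whole lists were 775 and 952 bp at day 15 and 1514 and 1045 bp at day 0, Hira-null before WT. Only in Hira-null mESCs were the peaks of standard genes narrower than their list by this measure.

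At gene starts the sequence of TOP genes was looked up, because many of these mRNAs are known to share it. A tract was called where a C followed by at least 4 more C or T began within 10 bases of the RefSeq start, read in the direction of transcription. It was found in 33 of the 55 standard genes that matched the RefSeq promoter table (GRCm38.p6). By promoter, it was found in 50.8% of the 65 of these genes and in 29% of all 32851. Of the genes with a WT start peak at day 15 that matched this table, Rpl13 and Rpsa held no tract, and Rpl10a and Rpl19 each had 1 promoter with a tract and 1 without. The 3 runs are from the others of these genes and are shown because they hold one. They give the 20 bases before the start and the 20 bases from it, with the tract in capitals.
Rpl27a: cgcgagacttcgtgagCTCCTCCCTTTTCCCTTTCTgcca
Rps12: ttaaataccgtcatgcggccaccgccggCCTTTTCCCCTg
Rps9: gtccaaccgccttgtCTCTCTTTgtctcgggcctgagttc

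The retrocopies carry the mRNA sequence of the standard genes without their place in the genome. None of the 53 retrocopies had a peak over its body in any list, against peaks over the bodies of 28 standard genes in Hira-null and 47 in WT cells at day 15, and 10 and 46 at day 0. These are 36.8% and 61.8% of the standard genes at day 15, against 9.37% and 27.8% of all protein-coding genes, and 13.2% and 60.5% at day 0, against 13% and 24.2%. The share in Hira-null mESCs was thus near the background. Retrocopy bodies are short, with a median of 483 bp, against 3238 bp for standard genes and 15427 bp for all protein-coding genes. A short body is less likely to be touched by a peak, and the part of length in these counts was not tested. Retrocopy windows had a peak at 3 in Hira-null (5.66%) and 6 in WT cells (11.3%) at day 15, and 7 (13.2%) and 9 (17.0%) at day 0. Among all protein-coding genes, whose windows are longer, the shares were 15.2% and 39.4% at day 15 and 20.3% and 35.4% at day 0. The exons of the retrocopies repeat elsewhere in the genome, since 68.5% of the 32-base words in them occur more than once. In standard genes this was so for 22.8% of words in exons, 6.0% in introns, 7.61% in the 3 kb past the end and 11.9% in the 3 kb before the start. The flank past the end was under peaks over 27.7% of its length in Hira-null and 45.9% in WT cells at day 15, and over 7.33% and 37.6% at day 0. The flank before the start was under peaks over 1.70% and 5.25% at day 15 and 0.190% and 4.71% at day 0. How the aligner's handling of repeated reads bears on these counts was not tested.

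Among the 9 other symbols, no end peak was found in Hira-null cells on either day. In WT cells at day 15 there were 3, at Rpl22l1, Rps27l and Rpl7l1, and in WT mESCs 1, at Rpl7l1. Rpl22l1 and Rpl7l1 are relatives of Rpl22 and Rpl7. Rpl7l1 had 1 window peak in Hira-null and 4 in WT cells at day 15, and 0 in Hira-null and 5 in WT mESCs. Rps19bp1, which binds Rps19 and is no ribosomal protein, had 1 window peak in every list. Rpl10l and Rps4y2 had none. Rpl36al had 2 WT peaks at day 15, Rpl39l had 1 Hira-null peak at day 0, and Rpl3l, the striated muscle form of Rpl3, had 1 WT peak at day 15, with a score of 55.3, in the window it shares with Rps2.

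Other gene lists of protein synthesis and energy supply were counted in the same way. Of 61 translation factor genes, 18% had an end peak in Hira-null and 44.3% in WT cells at day 15, and 13.1% and 31.1% at day 0. Of 55 ribosome biogenesis genes, the shares were 9.09% and 41.8% at day 15 and 5.45% and 27.3% at day 0. Of 88 oxidative phosphorylation genes, they were 2.27% and 21.6% at day 15 and 2.27% and 14.8% at day 0. None of the 77 genes of the mitochondrial ribosome had an end peak in Hira-null cells at day 15 (interval up to 4.68%), and 23.4% had one in WT cells, with 1.3% and 11.7% at day 0. Each list stood above all protein-coding genes in WT cells and below the standard ribosomal protein genes. The genes of these lists with the most peaks included Eif4b, with 7 window peaks in Hira-null and 8 in WT cells at day 15, and Ncl, which encodes nucleolin, with 6 and 7. Of the ribosomal proteins named otherwise, Gnb2l1 (RACK1) had an end peak in every list and Fau in none.

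**Figure D4:**
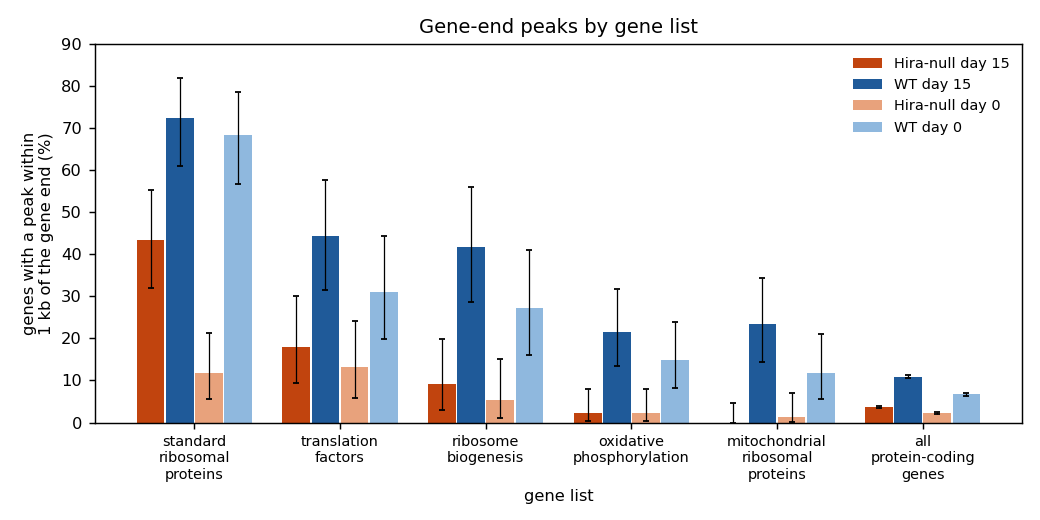
Share of genes (y axis, percent) with a peak within 1 kb of the gene end, by gene list (x axis) and peak list (colour), with exact 95% intervals for counting error. The standard ribosomal protein genes have the highest bar in 3 of the 4 peak lists, 43.4% in Hira-null and 72.4% in WT cells at day 15 and 68.4% in WT mESCs, and in Hira-null mESCs they stand at 11.8% beside 13.1% of translation factors.

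The labelled cell states were checked at marker genes. The pluripotency genes Pou5f1, Nanog, Zfp42, Esrrb and Dppa2 had 0, 2, 2, 4 and 0 window peaks in Hira-null and 6, 3, 10, 11 and 6 in WT mESCs. At day 15 they had 0, 0, 0, 1 and 0 in Hira-null and 0, 1, 0, 0 and 0 in WT cells. Without a peak in Hira-null mESCs, Pou5f1 and Dppa2 gave no check of that label. The cardiac genes Myh6, Myh7, Tnnt2, Actc1 and Nkx2-5 had 0 peaks in all 4 lists, so peaks at these genes gave no check of the cardiac label. Acta2, Tagln, Col1a1 and Col3a1, which are active in smooth muscle and fibroblasts, had 4, 3, 4 and 7 peaks in Hira-null and 1, 0, 1 and 1 in WT cells at day 15. Each of them had 0 peaks in both day 0 lists. The part of cell composition in the counts at ribosomal protein genes was not tested.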

How the data were processed

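H3.3-HA ChIP-seq was done by the authors in Hira-null and WT cells at day 15 and day 0, 1 library per condition with its input (8 samples). Per the paper's methods and the labels, micrococcal nuclease fragments were sequenced as pairs, reads were aligned to mm9 (Bowtie, at most 3 mismatches) and freed of duplicates (Samtools), and MACS 1.4.2 called peaks with default settings. The 4 deposited peak lists give a chromosome, start, end and score, where the deposited score is the authors' p-value of the peak on a scaled negative log10 axis, with a minimum of 50 in every list. No read counts or input signal were used here, so depth is unknown and a gene without a peak may lie under the threshold.

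Genes came from GENCODE M1 on mm9. A peak was counted at a gene whose window it touched by at least 1 bp, and by midpoint for its position. Sequences were read from mm9, and gene starts from RefSeq (GRCm38.p6). Scripts ran in Python 3.11.15 with pandas 2.3.3, numpy 2.4.6 and, for intervals, scipy 1.17.1. Figures were drawn with matplotlib 3.10.9. Overlaps were checked with bedtools 2.31.1 and tested on simulated data. Groups came from the labels. With 1 library per condition, no test and no p-value was computed. Alternatives changed the window, scores, list length, chromosomes, members, gene model, overlap and position rule. The members, gene lists and naming rule (most peaks, all 4 lists, Hira-null alone, highest peaks, shared windows) were chosen with earlier results of these data known. Values of some members are not reported here.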

Additional observations from a re-analysis of the deposited data

How the results depend on the processing

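No paired analysis was possible because each condition has 1 library. Values here are over all 138 symbols, Hira-null before WT. Window counts were 59 and 80 at day 15 and 26 and 73 at day 0. Of 262 values under alternatives, 207 moved by less than 1.5-fold, or stayed inside the counting interval for a share, and 55 moved by more. Counting peaks at the nearest gene, leaving out chromosomes 8 and 11, and using the transcript with the longest coding sequence moved none of the window, end, genotype, day and partner values past that limit. Leaving out chromosomes 8 and 11 removed few symbols and kept 67 of the 76 standard genes. The larger counts could therefore not move by 1.5-fold under it, and it is no check of them. The cause of the moves below was not tested.

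With the gene body alone, window counts were 29 and 50 at day 15 and 10 and 47 at day 0, with 24 genes in both genotypes at day 15, 9 in both and 1 in Hira-null alone at day 0, 21 and 2 Hira-null genes at day 15 or day 0 alone and 8 WT genes at day 15 alone. Peaks without a partner then made up 14.3% and 45.6% at day 15 and 28.6% of Hira-null peaks at day 0. Ending the window 200 bp past the gene left 39 Hira-null genes at day 15, 33 in both genotypes and 25 at day 15 alone. A score of at least 100 left 15 and 46 genes at day 0, 7 in both, 25 WT genes at day 15 alone and 4 end peaks in Hira-null mESCs. Lists of equal length gave 15 genes in Hira-null alone and 13 in WT alone at day 15, turning their order, while at day 0 they gave 9 and 45 genes, 5 in both, 4 in Hira-null alone, 3 Hira-null genes at day 0 alone and 4 Hira-null end peaks. Peaks without a partner were then 44.8% and 43.8% at day 15.

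The 76 standard genes alone gave 17 Hira-null genes at day 0, 1 in Hira-null alone on each day, 16 in WT alone at day 15, 2 Hira-null and 1 WT genes at day 0 alone and 7 WT genes at day 15 alone. Without retrocopies, an alternative added after seeing the data, there were 1 in Hira-null alone at day 15, 2 at day 0, and 3 Hira-null and 1 WT genes at day 0 alone. An overlap of at least 50% raised the peaks without a partner to 35.4% and 69.3% at day 15.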
